A study of Mus musculus with 2 samples.

Results

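The proteasome family genes are described here in gastrocnemius, the large calf muscle. They were found as every gene with a protein-coding transcript whose symbol begins with Psma, Psmb, Psmc, Psmd or Psme and a digit, with rows named as pseudogenes left out. The rule found 45 of 55536 genes, and 4 pseudogene rows were left out. One of the 45, Psmc3ip, carries the prefix but is a cofactor of meiotic recombination and not a proteasome subunit, so 44 remain as subunits, assembly factors and activators. The rule used names only and no measured value. The genes lie on 16 chromosomes, with 10 on chromosome 11 and 6 on chromosome 14.

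Total RNA was sequenced from muscle of female B6CASTF1/J mice at 36 days of age. The strain is a first-generation cross between a laboratory inbred and a castaneus parent, and no treatment or other allele is given. Both libraries, called replicate 1 and replicate 2, belong to 1 group, and 300 ng of RNA with ERCC spike-in RNAs went into each. Where 2 values are given together, the first is replicate 1 and the second replicate 2. There is no control or treated group, so no test of a condition was possible and no p-value is given. Whether the 2 tissue samples are from different animals is not stated in the labels, so their spread may be partly technical.

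The proteasome is the barrel-shaped protease that degrades proteins tagged with ubiquitin. Its core particle is built of outer rings of alpha subunits and inner rings of beta subunits, and the beta subunits Psmb5, Psmb6 and Psmb7 carry the active sites. A regulatory particle with a base of ATPases and a lid recognises, unfolds and feeds in substrates. In cells exposed to interferon gamma, and in many blood cells, Psmb8, Psmb9 and Psmb10 take the places of Psmb5, Psmb6 and Psmb7 to form the immunoproteasome, which is known for making peptides for antigen presentation. In muscle the ubiquitin and proteasome pathway is known as the main route of myofibrillar protein loss during atrophy.

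Depth was 37735687 and 40656175 estimated counts. The 7 fast fibre markers summed to 113154 and 83240 TPM, where TPM is a level corrected for transcript length and scaled to a fixed total per library. The libraries stood apart in other tissue components. The 7 slow fibre markers summed to 15.1 and 2612 TPM, the 5 fat cell markers to 215 and 24.0 TPM, and the 6 red blood cell markers to 2445 and 425 TPM. Any part of these differences in the values below was not tested. In bulk tissue, fewer cells of a type and less RNA per cell cannot be told apart.

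The DNA upstream of the genes at the centre of the comparison is shown first, for catalytic subunits of the constitutive proteasome and of the immunoproteasome. The stretches were taken from RefSeq windows on GRCm38.p6 and end before the first annotated exon in GENCODE M21. They run 5′ to 3′ on the strand of the gene. Capitals mark TGANNNNGC, a loose form of the core of the antioxidant response element, in which any base may follow TGA. That element is bound by NRF factors such as the product of Nfe2l1. The stretch of Psmb5 lies at chr14:54618023-54618245 on the minus strand, that of Psmb6 at chr11:70525107-70525356 on the plus strand, and that of Psmb10 at chr8:105938445-105938642 on the minus strand.
Psmb5: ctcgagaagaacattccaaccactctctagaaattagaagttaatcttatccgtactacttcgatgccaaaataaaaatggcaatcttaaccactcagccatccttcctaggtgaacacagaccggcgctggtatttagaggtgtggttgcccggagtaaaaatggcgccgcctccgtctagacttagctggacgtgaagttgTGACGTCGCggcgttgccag
Psmb6: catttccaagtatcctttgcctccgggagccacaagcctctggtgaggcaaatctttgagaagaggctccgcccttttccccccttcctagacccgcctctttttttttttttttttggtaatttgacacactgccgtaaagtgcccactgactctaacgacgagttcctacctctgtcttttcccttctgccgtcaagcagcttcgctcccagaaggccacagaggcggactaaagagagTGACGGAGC
Psmb10: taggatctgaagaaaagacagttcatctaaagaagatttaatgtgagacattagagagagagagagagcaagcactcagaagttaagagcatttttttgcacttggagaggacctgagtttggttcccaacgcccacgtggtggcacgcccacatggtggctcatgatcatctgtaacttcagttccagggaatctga
In Psmb5 the match stood at bases -47 to -39 from the start in RefSeq, and in Psmb6 at bases -9 to -1. The stretch shown for Psmb10 held no match to any of the 5 motifs searched. This says only that these letters are not in this stretch.

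The motifs were searched on both strands in windows of 300 bases, from 250 bases before to 50 bases after the start. Of the 45 genes, 38 had a window, and Psma8, Psmb1, Psmb2, Psmb7, Psmc3, Psmd3 and Psmd7 had none. TGANNNNGC was found in 21 of 38 member windows, or 55.3%, beside 41.3% of all 32851 windows. Among these were Psmb8 with TGATGTGGC and Psmb9 with TGATGGGGC. In both, T follows TGA, where the matches shown above for Psmb5 and Psmb6 have C. Only in this loose form were the letters found in 13 of 25 constitutive and 2 of 3 immunoproteasome windows. A stricter form was not searched. The gamma-activated site TTCNNNGAA was found in 5.26% of member windows and 8.30% of all windows. Its matches were in Psmd2 and in Psmb8, where TTCCCAGAA stood at bases -97 to -89. The core of the interferon-stimulated response element (GAAA, any 2 bases, GAAA) was found in 4 member windows (Psmb3, Psmd4, Psmd9 and Psme1), or 10.5%, beside 3.44% of all windows. CCAAT boxes (CCAAT) stood in 39.5% of member and 37.4% of all windows, and TATA boxes (TATAAA) in 10.5% and 13.6%. Member windows had a median GC content of 57.3% and a median of 19 CpG dinucleotides, beside 52.7% and 7 over all windows. These are counts of letters and not of bound sites, and motifs can overlap.

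The subunits of the constitutive proteasome were expressed well above the typical gene of this muscle. All 31 constitutive subunits (14 of the core and 17 of the regulatory particle) exceeded 1 TPM, the detection threshold, in both libraries. They also all exceeded the median detected protein-coding gene, which stood at 7.30 and 7.33 TPM. Their median was 53.0 ± 3.48 TPM (SD, n = 2), higher than 91.3% of 9945 detected protein-coding genes. The core particle median was 51.7 ± 1.17 TPM and the regulatory particle median 52.5 ± 4.94 TPM, a difference smaller than the spread between the libraries. Together the 45 genes held 0.226% and 0.206% of all gene counts. The order of the 31 levels was nearly the same in both libraries (Spearman's rho 0.976, n = 31 subunits that share library and transcript lengths). Levels in the reads-based table were a median of 1.54 times those in the alignment-based table, beside 1.49 times over all detected protein-coding genes. Over the 31 subunits this ratio ran from 0.913 to 2.47. The order differed more between the tables (Spearman's rho 0.897) than between the libraries.

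Of the 45 genes, 40 were detected. The other 5 were Psma8, Psmb9, Psmb11, Psme2b and Psmc3ip, and each is described with its group below. Psmc3ip stood at 0.68 and 0.64 TPM, below the threshold in both.

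**Figure D1:**
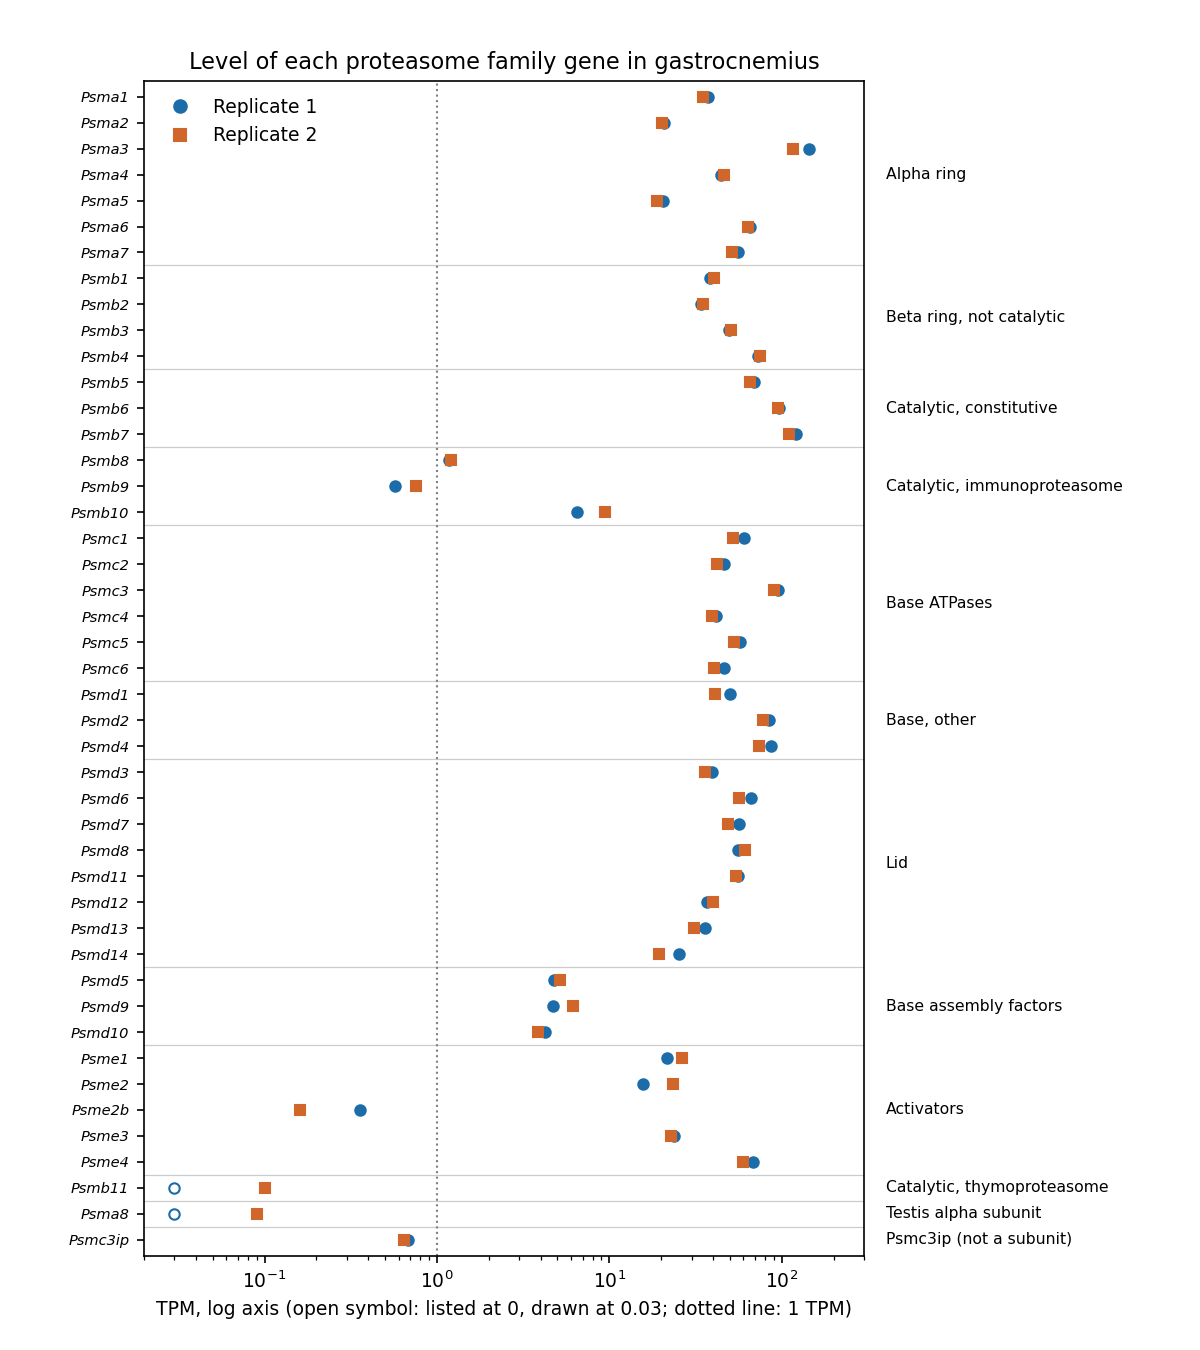
TPM of each of the 45 genes (log axis) in replicate 1 (circles) and replicate 2 (squares), grouped by role. The constitutive subunits of core, base and lid lie together between about the levels of Psma5 and Psma3, and the immunoproteasome subunits, assembly factors and tissue-restricted subunits lie to the left of them.

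The 7 subunits of the alpha ring, which gates the barrel, had a median of 45.3 ± 0.997 TPM (SD, n = 2). The lowest was Psma5 at 20.41 and 18.85 TPM, close to Psma2 at 20.87 and 20.20 TPM. The highest was Psma3 at 143.37 and 115.92 TPM. In the alignment-based table the ring therefore spanned 6.60-fold between subunits that stand in the complex in equal number. The other alpha subunits fell in between: Psma1 was at 37.34 and 34.91 TPM and Psma4 at 44.56 and 45.97 TPM. Psma7 was at 55.43 and 51.31 TPM, and Psma6 at 65.85 and 63.85 TPM. Each of these 4 kept its place in the order in both libraries. Psma8, which replaces Psma7 in the germ cells of the testis, had 0 counts in replicate 1 and 1 count in replicate 2, within the floor of 3 counts that a count of 0 allows, and the 5 testis germ cell markers summed to 0.21 and 0.09 TPM.

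Psma3 had the largest posterior SD of the ring in the deposited tables, 53.92 of 3112 counts in replicate 1 and 62.85 of 2835 counts in replicate 2. It shares 655 stretches of 31 bases with the processed pseudogene Gm13835, which was given 207.27 and 234.27 counts in the alignment-based table and 0 in both libraries of the reads-based table. Over the family, 13 of 45 genes share at least 100 such stretches with 22 annotated pseudogenes. The pseudogenes took 12.4% and 13.1% of the combined counts of Psma5 and its copies, 7.13% and 8.38% for Psmb3, 6.90% and 7.17% for Psmb5 and 6.27% and 7.63% for Psma3. The share was under 1% in the other 9 genes. Estimation divides the shared reads, so levels of those 4 subunits carry an uncertainty that these shares do not measure. In replicate 1 the posterior SD was 6.01 of 710 counts for Psma5, 4.87 of 1012 for Psmb3 and 5.87 of 1671 for Psmb5. There Gm8394, the main copy of Psma5, had 99.75 alignment-based and 98.07 reads-based counts. For Gm3375, the copy of Psmb5, these were 123.88 and 111.72, and for the main copy of Psmb3 77.69 and 1.38.

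The 4 beta subunits without an active site had a median of 44.8 ± 0.877 TPM (SD, n = 2). Psmb2 was lowest at 33.97 and 34.71 TPM, followed by Psmb1 at 38.59 and 40.26 TPM. Psmb3 stood at 49.70 and 50.51 TPM, and Psmb4 at 72.53 and 74.43 TPM. These 4 differed between genes by more than between libraries, and the order was the same in both.

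The constitutive catalytic subunits were the highest group of the core, with a median of 95.6 ± 1.17 TPM (SD, n = 2). Psmb5, which carries the chymotrypsin-like site, was at 69.33 TPM (1671 counts) in replicate 1 and 65.36 TPM (1671 counts) in replicate 2. Psmb6, with the caspase-like site, was at 96.46 TPM (2031 counts) and 94.81 TPM (2104 counts). Psmb7, with the trypsin-like site, was at 120.28 TPM (3916 counts) and 110.62 TPM (3801 counts). On mm10 these genes span chr14:54614119-54618022, chr11:70525367-70527858 and chr2:38588036-38644087. The order Psmb5, Psmb6, Psmb7 held in both libraries and also in the reads-based table, where Psmb5 had 84.9 and 76.8 TPM, Psmb6 141 and 125 TPM, and Psmb7 196 and 168 TPM.

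Their immunoproteasome counterparts were present at a small fraction of these levels. Psmb8, the counterpart of Psmb5, was at 1.18 TPM (33 counts) in replicate 1 and 1.20 TPM (34 counts) in replicate 2. Psmb9, the counterpart of Psmb6, was at 0.57 TPM and 0.76 TPM, from 17 counts in each library. Psmb10, the counterpart of Psmb7, was the highest at 6.46 TPM (113 counts) and 9.50 TPM (177 counts). They span chr17:34197721-34201454 (Psmb8), chr17:34181987-34187764 (Psmb9) and chr8:105935735-105938444 (Psmb10) on mm10. The constitutive and the immunoproteasome levels did not overlap in either library. Summed over the 3 genes, the constitutive subunits stood at 286.07 and 270.79 TPM and the immunoproteasome subunits at 8.21 and 11.46 TPM, a ratio of 34.8-fold in replicate 1 and 23.6-fold in replicate 2.

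The immunoproteasome share of catalytic TPM was 2.79% and 4.06%, a mean of 3.43 ± 0.898% (SD, n = 2). By counts, which are not per length, the share was 2.09% (95% Wilson interval 1.80 to 2.44%) in replicate 1 and 2.92% (2.57 to 3.32%) in replicate 2. These intervals cover counting error only, since the reads carry no molecular identifiers and may be copies of 1 molecule, and they do not overlap. The pairs differed from each other. Within the pair of Psmb5 and Psmb8, Psmb8 held 1.67% and 1.80% of TPM. Psmb9 held 0.587% and 0.795% of its pair with Psmb6, and Psmb10 held 5.10% and 7.91% of its pair with Psmb7. Most of the immunoproteasome share thus came from Psmb10, and without the pair of Psmb7 and Psmb10 the share was 1.04% and 1.21%.

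**Figure D2:**
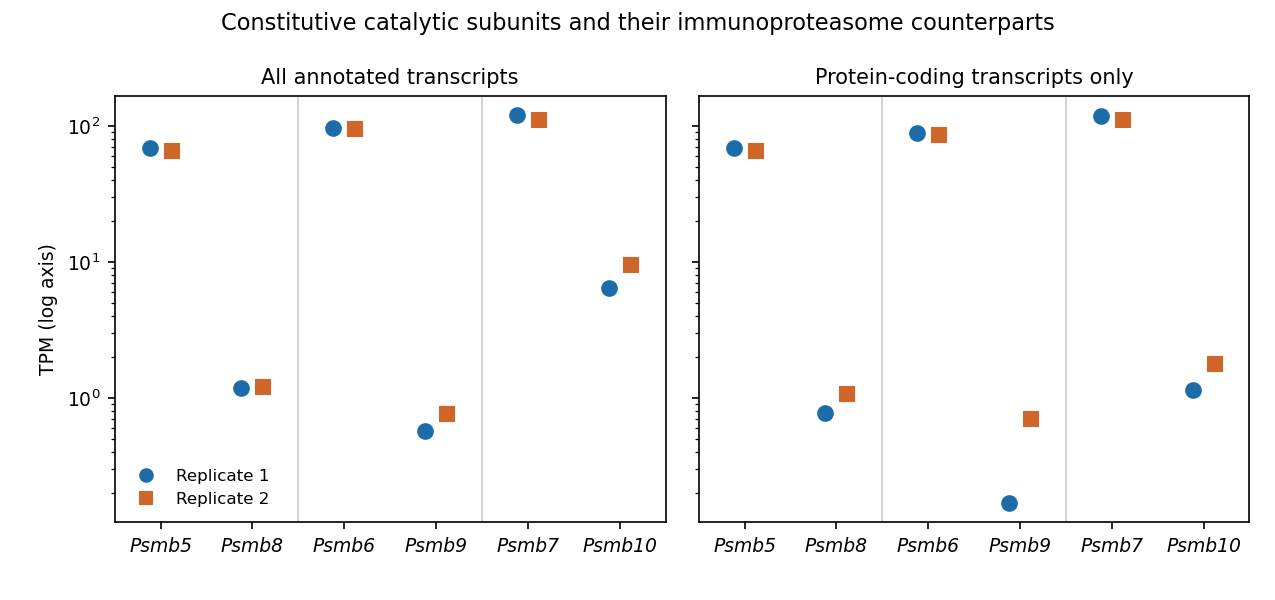
TPM (log axis) of each constitutive catalytic subunit beside its immunoproteasome counterpart, in replicate 1 (circles) and replicate 2 (squares), over all annotated transcripts (left) and over protein-coding transcripts only (right). Psmb10 lies above Psmb8 and Psmb9 on the left, and near Psmb8 on the right.

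Most of the TPM of Psmb10 belonged to transcripts that are not annotated as protein-coding. Its protein-coding transcript, Psmb10-201, held 17.6% of the gene's TPM in replicate 1 (1.14 TPM, 42.0 of 113 counts) and 18.8% in replicate 2 (1.79 TPM, 69.9 of 177 counts). The retained-intron transcript Psmb10-205 held 35.9% and 16.9%, the processed transcript Psmb10-203 held 26.4% and 41.6%, and the retained-intron transcript Psmb10-207 held 20.1% and 17.5%. The coding share was low in both libraries, while the division among the other transcripts was not stable. The coding share of TPM was also low in the reads-based table, at 20.04% and 24.31%. Among 9945 detected protein-coding genes, only 1.62% and 1.80% had a lower coding share. With protein-coding transcripts alone, the immunoproteasome share of catalytic TPM was 0.746% and 1.35%, and Psmb10 held 0.942% and 1.60% of its pair with Psmb7. By counts the coding transcript held a larger part of Psmb10, 37.2% and 39.5%, since it is the longest of the 4 at 1311 bases. By counts of the reads-based table its part was 48.5% and 48.1%. The antisense gene annotated across Psmb10, Gm16156, had 0 counts in both libraries.

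A stretch of Psmb10-207 where a retained intron meets a coding exon is printed to show what such a transcript holds, from chr8:105936696-105936814 of mm10 on the minus strand. Lower case marks 60 bases that are intron in Psmb10-201, and capitals mark 59 bases that are coding exon in it.
Psmb10-207: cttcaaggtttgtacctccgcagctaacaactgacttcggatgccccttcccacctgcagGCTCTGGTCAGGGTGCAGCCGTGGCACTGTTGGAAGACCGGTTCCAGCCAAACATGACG
Reads over the lower-case bases can belong to an unspliced RNA and not to Psmb10-201, and reads over the capitals are shared by both. Total RNA libraries also hold RNA that is not yet spliced, and the part of such RNA in these values was not tested.

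Psmb8 and Psmb9 were too low for their transcripts to be told apart. Protein-coding transcripts held 0.78 of 1.18 TPM and 1.08 of 1.20 TPM of Psmb8, and 29.8% and 92.1% of the TPM of Psmb9, from 17 counts in each library. Psmb9 overlaps Tap1, a peptide transporter of antigen presentation, on the opposite strand, and Tap1 had 47 counts in each library. Psmb9 and Psmb8 lie 9956 bases apart on chromosome 17.

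Psmb11, the catalytic subunit of the thymoproteasome of thymic cortical epithelium, was listed at 0 TPM (0 counts) in replicate 1 and 0.10 TPM (14 counts) in replicate 2. In the reads-based table it had 6.95 and 24.9 estimated counts, so replicate 1 was not without reads in both tables. Markers of the thymus moved with it. The 10 thymocyte and T cell markers summed to 0.20 TPM in replicate 1, where 7 were at 0 counts, and to 9.60 TPM in replicate 2, where 1 (Ptcra) was at 0. Rag1 had 0 and 289 counts, Cd8a 1 and 123, and Lck 0 and 79. The 6 thymic epithelium markers summed to 5.06 and 9.52 TPM, with 4 at 0 counts in replicate 1 and none in replicate 2, and most of that sum was Ccl25, at 5.02 and 6.26 TPM (210 and 249 counts). Prss16 had 0 and 132 counts and Foxn1 had 0 and 4. The part of these cells in the values of Psmb11 and of the immunoproteasome subunits was not tested. Beside this difference, Psmb8 and Psmb9 had nearly equal counts in both libraries but too few to show a modest change. Psmb10 (113 and 177 counts) and Psme1 (609 and 739 counts) were higher in replicate 2. Psme2 (324 and 349 counts) was nearly level by scaled counts, and B2m of class I presentation (729 and 589 counts) was lower. All 7 slow fibre and all 5 endothelial markers were also higher in replicate 2 by scaled counts, beside 48.0% of all genes averaging 100 counts or more. Psmb11 lies 3410 bases from Psmb5 on chromosome 14. The 7 macrophage markers summed to 28.2 and 30.7 TPM, the 5 endothelial markers to 39.1 and 46.0 TPM and the 5 B cell markers to 0.26 and 0.30 TPM, none of them at 0 counts.

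The 6 ATPases of the base, which unfold substrates, had a median of 49.5 ± 3.19 TPM (SD, n = 2). Psmc4 was the lowest of them by the mean of both libraries, at 41.42 and 39.39 TPM, next to Psmc6 at 46.25 and 40.29 TPM and Psmc2 at 46.05 and 42.15 TPM. In the alignment-based table Psmc6 and Psmc2 did not differ beyond the spread between the libraries, while Psmc4 was below both in each library. Psmc5 was at 57.25 and 52.53 TPM and Psmc1 at 60.37 and 52.32 TPM, also within that spread of each other. In the reads-based table Psmc6 (117.5 and 96.3 TPM) exceeded Psmc2 (73.5 and 62.4 TPM), and Psmc1 (97.6 and 90.4 TPM) exceeded Psmc5 (77.9 and 68.3 TPM). Over protein-coding transcripts alone Psmc6, at 23.82 and 21.48 TPM, was below Psmc4 at 39.26 and 37.83 TPM. Psmc3 stood above the rest at 94.79 and 89.70 TPM. The 6 ATPases form a ring with 1 copy of each, and their levels spanned 2.28-fold.

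The other base subunits were Psmd1 and Psmd2, the large scaffolds, and Psmd4, a ubiquitin receptor. Psmd1 was at 50.35 and 40.80 TPM, Psmd2 at 84.18 and 77.35 TPM, and Psmd4 at 87.12 and 73.87 TPM. Each of the 3 was lower in replicate 2. Psmd4 and Psmd2 exchanged places between the libraries.

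The 8 lid subunits had a median of 46.0 ± 2.29 TPM (SD, n = 2). The lowest was Psmd14, the deubiquitinase that removes ubiquitin chains before degradation, at 25.40 and 19.36 TPM. Psmd13 followed at 35.89 and 30.94 TPM, and overlaps Sirt3 (227 and 404 counts) on the opposite strand. Whether the counting used strand is not given in the sources used here, so their reads may not be fully separated. Psmd3, at 39.24 and 36.02 TPM, and Psmd12, at 36.95 and 39.76 TPM, changed order between the libraries. The upper part of the lid lay within a narrow range. Psmd7 was at 56.25 and 49.04 TPM, Psmd11 at 56.06 and 54.04 TPM, Psmd8 at 56.03 and 60.93 TPM and Psmd6 at 66.25 and 56.42 TPM, and the first 3 were nearly level with each other in replicate 1.

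The 3 assembly factors of the base, which bind ATPases during assembly and are absent from the finished particle, were far less abundant than the subunits. Psmd5 stood at 4.77 and 5.20 TPM, Psmd9 at 4.74 and 6.17 TPM and Psmd10 at 4.24 and 3.84 TPM. By counts Psmd9 was nearly level, at 271 and 279, while its short transcript Psmd9-204, of 735 bases, held 28.3% and 51.5% of its TPM. Their median of 4.97 ± 0.325 TPM (SD, n = 2) lay below the median detected protein-coding gene, and no level of the 3 overlapped that of any base subunit.

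Among the activators, which open the core without the regulatory particle, Psme4 was highest at 68.47 and 59.71 TPM. It is the large single-chain activator, and with 12578 and 11716 counts it took more reads than any other member. Psme3, the mainly nuclear activator, was at 23.71 and 22.64 TPM. Psme1 and Psme2, which form a joint ring and are induced by interferon gamma like the immunoproteasome subunits, were at 21.61 and 26.43 TPM and at 15.69 and 23.31 TPM. They were thus well above Psmb8, Psmb9 and Psmb10 in both libraries. Psme1 and Psme2 lie 5911 bases apart on chromosome 14. Psme2b, a copy of Psme2, was at 0.36 and 0.16 TPM, and the posterior SD of 3.02 and 2.20 on its 8.05 and 3.70 counts equals that on the counts of Psme2. The division of reads between these copies is therefore uncertain.

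Psme2 shows how a short transcript moves a level per length. Its counts were 324 in replicate 1 and 349 in replicate 2, a log2 ratio of 0.04 (replicate 2 over replicate 1, scaled counts), while its TPM gave 0.57. The retained-intron transcript Psme2-203, of 185 bases, held 12.0% of the gene's TPM from 4.96 counts in replicate 1 and 38.2% from 24.7 counts in replicate 2. Over protein-coding transcripts alone Psme2 was at 13.23 and 12.21 TPM, and so not higher in replicate 2.

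For the constitutive subunits as a group, protein-coding transcripts made up most of the level. The median coding share of TPM was 96.7% and 97.2% over the 31 subunits, beside 92.8% and 92.6% over all detected protein-coding genes. No subunit was under 50% in either library, as 8.30% and 8.08% of detected protein-coding genes were. The lowest was Psmc6 at 51.5% and 53.3%, followed by Psmd13 at 54.6% and 54.2% and Psmb4 at 54.5% and 62.1%. The leading transcript of all 31 subunits was the same in both libraries, and it was protein-coding in 30. The exception was Psmd13.

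The reads-based table divided some of these genes differently. Its median coding share was 92.4% and 94.3%, and 3 subunits were under 50%: Psma3 at 3.31% and 4.27%, Psmc6 at 19.8% and 20.3% and Psmd13 at 43.3% and 46.7%. For Psma3 the protein-coding transcript Psma3-204 held 40.0% and 37.4% of TPM in the alignment-based table and was listed at 0 in the reads-based table in both libraries. The transcript marked for nonsense-mediated decay, Psma3-201, held 9.42% and 11.7% in the former and 39.1% and 50.7% in the latter. The leading transcript was the same in both tables for 24 of 31 subunits. A statement about the isoforms of Psma3 or Psmc6 therefore depends on the table, while the low coding share of the TPM of Psmb10 was seen in both.

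**Figure D3:**
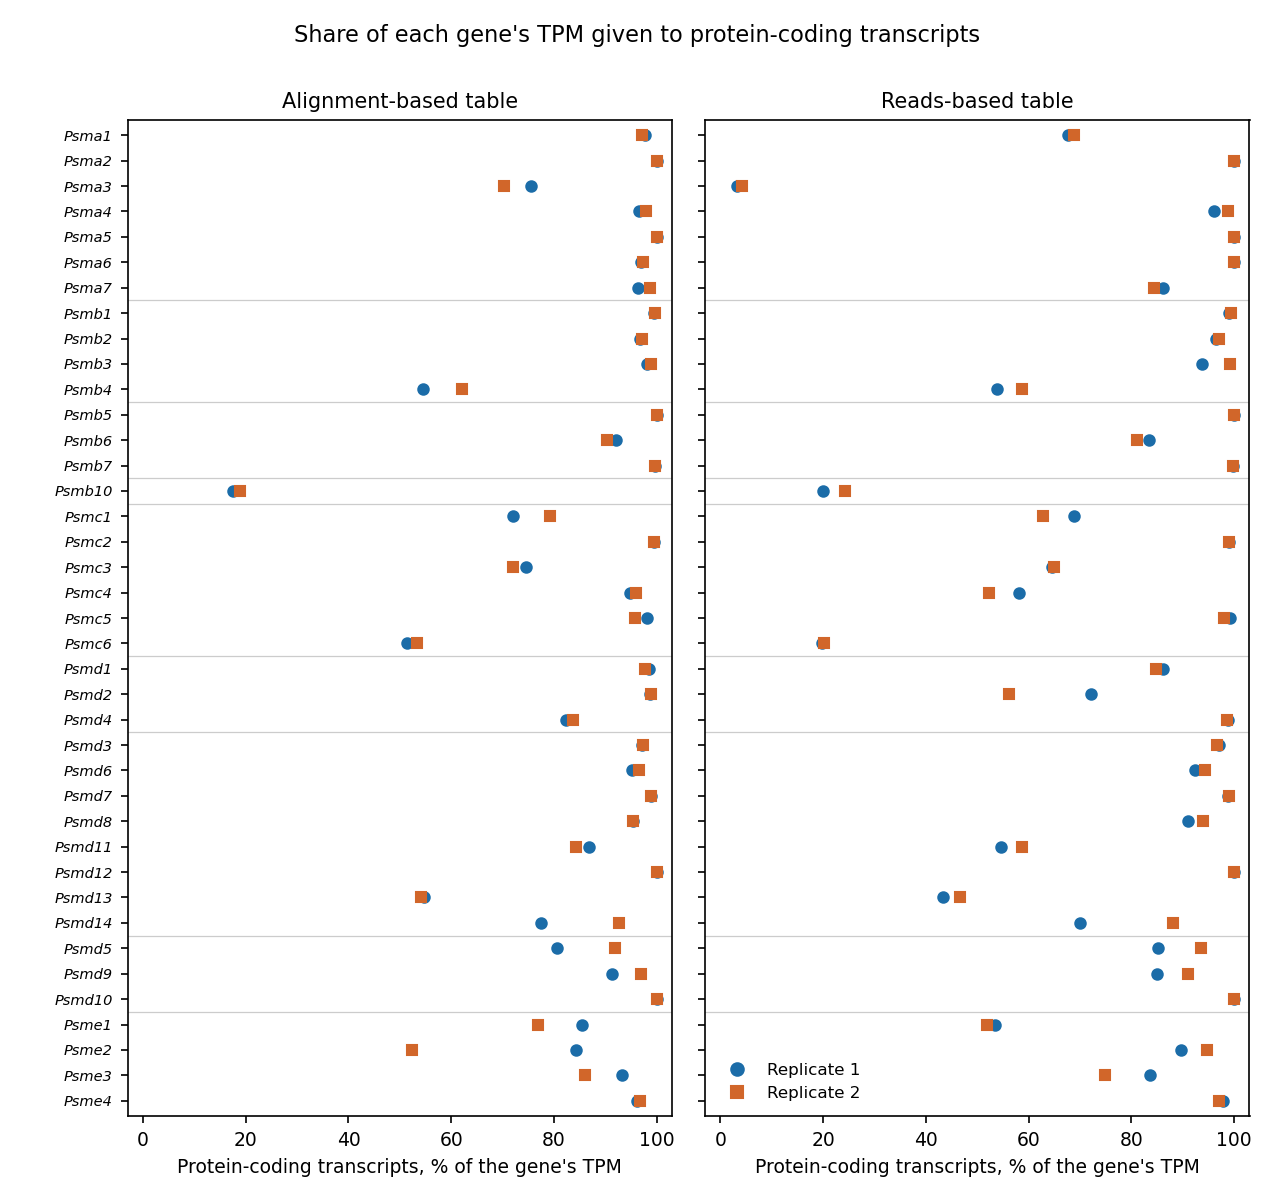
Share of each gene's TPM given to protein-coding transcripts (%), in the alignment-based table (left) and the reads-based table (right), for the 39 members averaging 100 counts or more, in replicate 1 (circles) and replicate 2 (squares). Psmb10 lies near 20% in both panels, while Psma3 and Psmc6 are lower on the right than on the left.

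Between the libraries, the 39 members averaging 100 counts or more lay close together. Ratios are of CPM (counts over the library total) scaled by TMM, which sets the bulk of genes equal. None of the 39 differed by over 2-fold, beside 3.30% of the 9996 genes with such a count, and none by over 1.5-fold, beside 8.97%. Of the 39, 13 were higher in replicate 2 and 26 in replicate 1 with this scaling (all 39 were higher in replicate 2 with the spike-in total), beside 48.0% and 52.0% of all such genes, and their median log2 ratio was -0.08 beside -0.01. The counting interval lay wholly above 1 in 5 and wholly below 1 in 16 of the 39, beside 23.8% and 25.3% of all such genes. The tilt to replicate 1 was therefore small, and with 1 library on each side it has no replicate check.

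By count, the tilt was larger in the regulatory particle. Of its 17 subunits, 14 were higher in replicate 1, all 9 of the base among them, beside 52.0% of all genes averaging 100 counts or more. The median log2 ratio of the 17 was -0.11. The counting interval lay below 1 in 13 of the 17, beside 25.3% of all genes averaging 100 counts or more. These intervals narrow as counts rise, so the 2 shares also reflect depth. In the core particle 8 of 14 subunits were higher in replicate 1 (median log2 ratio -0.02), which is near the 52.0% of all genes averaging 100 counts or more. The 4 beta subunits without an active site were all higher in replicate 2, beside 48.0% of those genes. Only for Psmb4 among these 4 did the counting interval lie wholly above 1. By the reads-based values, 10 of 14 core subunits were higher in replicate 1 (median log2 ratio -0.06), Psmb2 among them, beside 14 of 17 regulatory subunits (median -0.10), so the particles lay closer together there. Psmd1 had the lowest ratio of the family, with 4592 and 3905 counts, 1.23-fold higher in replicate 1 (95% exact counting interval 1.18 to 1.29). Scaled to the spike-in total instead, all 39 genes were higher in replicate 2, as were 92.3% of all such genes, because that scaling moved the median of all genes to 0.38. That scaling shifts all genes alike, so places relative to the median of all genes cannot change with it: 14 of 17 regulatory subunits lay below that median. The difference between the particles itself was not tested.

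Psmb10 had the highest ratio, 1.49-fold higher in replicate 2 (95% exact counting interval 1.17 to 1.91). The T cell, thymus, slow fibre and endothelial markers given above were also higher in replicate 2, and their part in this ratio was not tested. The ratio of Psmb10 was just under the 1.5-fold line with TMM scaling, and passed it with DESeq2 size factors (log2 ratio 0.60), in the reads-based table (0.61) and with the spike-in total (0.97). Psme1 was next among the genes that interferon gamma induces, with 609 and 739 counts, 1.16-fold higher in replicate 2 (1.04 to 1.29). Psmb8, with 33 and 34 counts, was at 0.982-fold (0.590 to 1.64) and Psmb9, with 17 in each, at 0.954-fold (0.458 to 1.99). At this depth a difference of that size in Psmb8 or Psmb9 was not detectable.

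**Figure D4:**
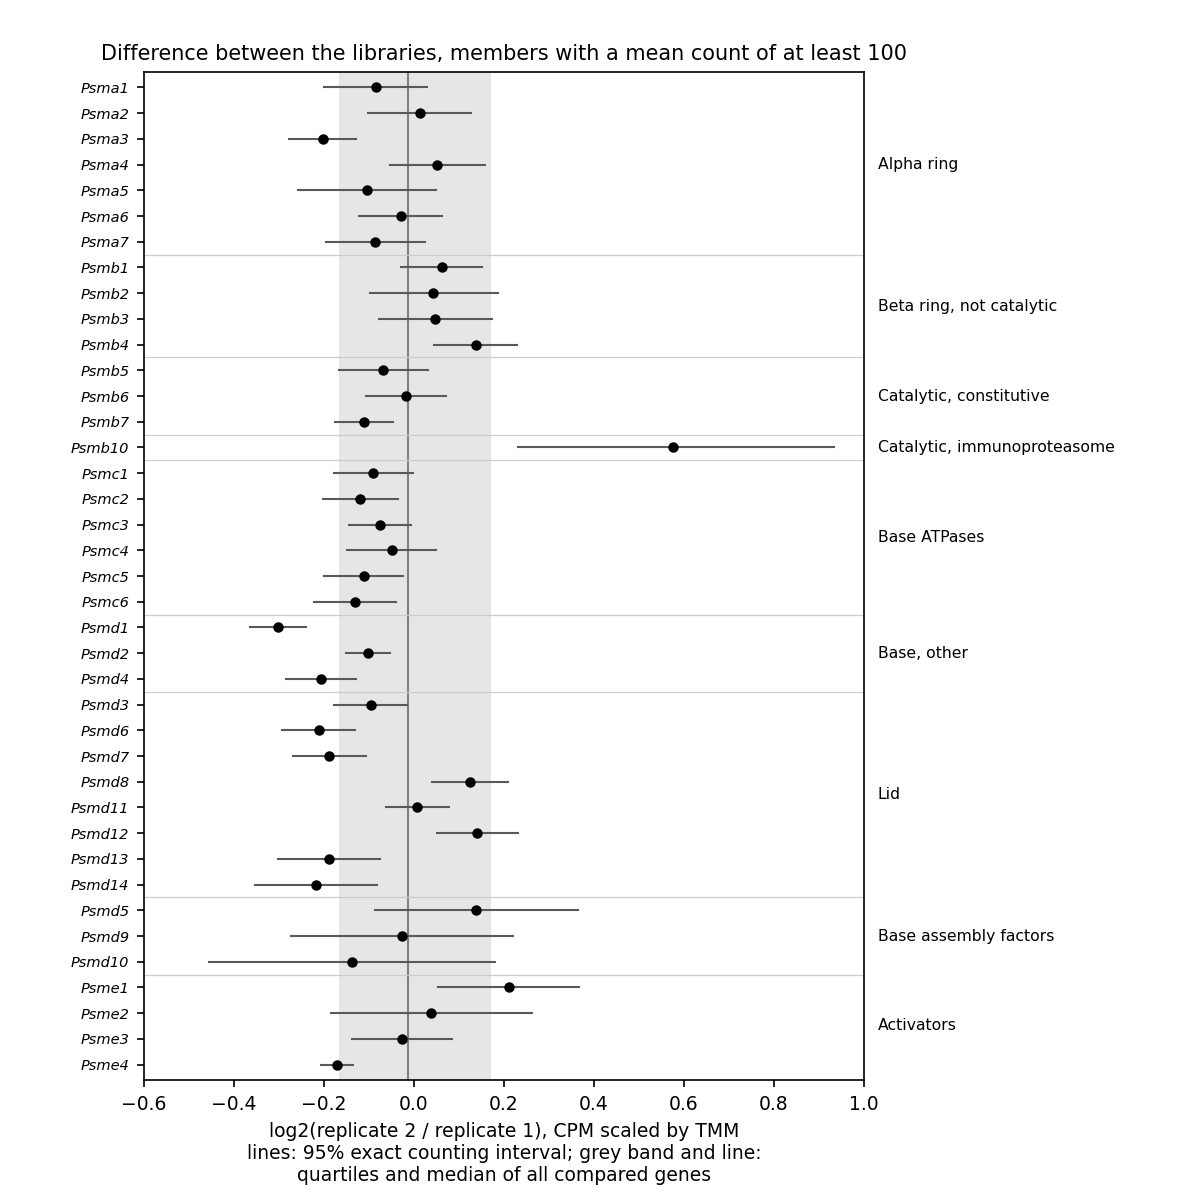
log2 ratio of replicate 2 over replicate 1 (scaled CPM) of the 39 members averaging 100 counts or more, grouped by role, with 95% exact counting intervals. The grey band spans the quartiles of all 9996 such genes (-0.16 to 0.17) and holds 24 of the 31 constitutive subunits. Psmb10 lies farthest to the right and Psmd1 farthest to the left. With the spike-in total all 39 would lie above 0.

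Genes that work with the proteasome ranged from levels like those of the subunits to levels like those of the base assembly factors. Of the particle parts named outside the family, all 6 with a row were detected, led by Ecpas, which links base and core, at 143.27 and 125.78 TPM. Adrm1, a ubiquitin receptor of the base, was at 43.20 and 40.19 TPM, Sem1, the smallest lid subunit, at 24.34 and 23.90 TPM and Usp14, a deubiquitinase that docks on the base, at 22.04 and 20.55 TPM. Uchl5, a deubiquitinase docked on Adrm1, at 9.47 and 9.74 TPM, and Psmf1, an inhibitor of the core, at 7.61 and 7.79 TPM, were below every constitutive subunit. Adrm1, Sem1 and Usp14 lay within the range of the constitutive subunits, as did Pomp, the core assembly factor that leaves only when the core is finished, at 52.25 and 50.97 TPM. All 6 core assembly genes were detected, with a list median of 7.03 and 6.88 TPM. The other 5 were lower than Pomp, with Akirin2, which carries finished proteasomes into the nucleus, next at 15.30 and 16.71 TPM, then Psmg2 at 8.71 and 8.13 TPM and Psmg4 at 5.35 and 5.62 TPM.

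Nfe2l1, the transcription factor known to raise proteasome genes when proteasome activity falls, was at 122.04 and 160.91 TPM. Vcp, the segregase that extracts it from the membrane, was at 105.18 and 88.09 TPM, and Ddi2, the protease that activates it, at 22.07 and 19.80 TPM. By counts scaled with TMM, Nfe2l1 was 1.13-fold higher in replicate 2. With the same scaling, 26 of the 39 proteasome genes compared were higher in replicate 1, beside 52.0% of all genes averaging 100 counts or more. Any link between the 2 was not tested. Of the 10 genes of transcription and processing, 9 were detected in both libraries. Among the genes of ubiquitin and its shuttles all 13 were detected, and the ubiquitin gene Ubb, at 388.58 and 316.98 TPM, exceeded every proteasome subunit. The ubiquitin ligases of atrophy Trim63 and Fbxo32 were at 157.12 and 94.55 TPM and at 41.76 and 38.94 TPM. None of the 7 pathway lists held a gene over 2-fold apart between the libraries where the mean count reached 100.

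The interferon-response genes and Nlrc5, whose products are known to act upstream of or beside the immunoproteasome genes, were low. Nlrc5, an activator of antigen presentation genes, was at 0.16 and 0.15 TPM. Its counts were not level, at 32 and 8, and at 36 and 12 in the reads-based table. Tap1 was at 0.92 and 0.69 TPM. Of the 13 genes of the interferon response, 7 were detected in both libraries, among them Irf8 at 4.95 and 3.87 TPM and Irf1 at 2.75 and 2.59 TPM. Their list median was 1.00 TPM and 1.13 TPM, near the level of Psmb8 and Psmb9. Of the 9 genes of class I presentation, 7 were detected, led by the general chaperones Calr (73.63 and 59.83 TPM) and Canx (42.29 and 40.25 TPM) and by B2m, the light chain of class I molecules (31.37 and 24.00 TPM).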

How the data were processed

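The 2 gastrocnemius libraries form 1 group and carry the replicate numbers of the labels. The members and gene lists were chosen with earlier results of these data known. For each library the authors deposited 1 gene table and 2 transcript tables, the first made through alignments to the transcriptome and the second from unaligned reads. Expected counts, estimated counts and TPM were used as deposited, and the reads-based values were summed per gene. The posterior SD in the deposited tables was read as a score of the certainty of read assignment, and the share of a transcript in its gene is a percent in the authors' tables. Genes follow GENCODE M21 on mm10, per the labels and the submitters' processing notes. The quantification software is not given in the sources used here. The effect of castaneus alleles on alignment to mm10 was not tested.

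Of 81881 rows, 55536 were genes. The 26248 tRNA rows, with 3 counts and 0 counts, were left out, and the 97 spike-in rows held 0.646% and 0.479% of counts. CPM values were scaled by TMM (edgeR 4.0.16, R 4.3.3) with a prior count of 0.5. Ratios used genes averaging 100 counts or more, with exact (Clopper-Pearson) 95% intervals. Shares of counts have Wilson intervals. The TMM scaling was tested on simulated counts with as many genes raised as lowered. They held no shift common to all genes, so this test cannot decide between TMM and the spike-in total. The genes named were every member, up to 4 of the highest genes of each pathway list and up to 3 of each cell type list. That rule does not cover Nlrc5, Tap1, Foxn1, Ptcra, Uchl5, Psmf1, Fbxo30 and Fbxo21, which were chosen from the lists after seeing their values. Some genes covered by the rule are not reported here. Alternatives covered thresholds, units, scaling (DESeq2 1.42.0 among them), filters, prior count, each library left out and the reads-based table. Other steps used scipy 1.17.1, pandas 2.3.3, matplotlib 3.10.9 and numpy 2.4.6 under Python 3.11.15.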

Additional observations from a re-analysis of the deposited data

How the results depend on the processing

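The median TPM of the core particle was 81.4 in the reads-based table and 121 when TPM was rescaled to protein-coding nuclear genes, and the median of the regulatory particle was 77.7 and 122. With each library left out, the core median ranged from 50.9 to 52.6, the regulatory median from 49.0 to 56.0 and the immunoproteasome share from 2.79% to 4.06%, and the number of genes detected stayed at 40. The share was 2.51% by expected counts, and, under alternatives chosen after seeing the data, 1.05% with protein-coding transcripts only and 1.13% without Psmb7 and Psmb10. With the spike-in total, 39 genes were higher in replicate 2 in place of 13, and their median log2 ratio was 0.32 in place of -0.08. Under the other alternatives, 36 to 42 genes were detected (thresholds of 5 and 0.5 TPM, reads-based table) and 11 to 16 were higher in replicate 2 (other scalings, filters and the reads-based table). Single ratios moved beyond counting error in 39 of 39 genes with the spike-in total and in 6 with TPM ratios, and in none with DESeq2 size factors, upper-quartile scaling, a prior count of 5 or the reads-based table. Ratios have no value with a library left out, since they need both. Psmb8, Psmb9, Psmb11 and Psme2b rest on under 35 counts in each library.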

Other observations

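The ubiquitin ligases and transcription factors of the muscle atrophy program differed unequally between the libraries. Trim63, a ubiquitin ligase of the sarcomere, was at 157.12 TPM (8514 counts) in replicate 1 and 94.55 TPM (5375 counts) in replicate 2, and Foxo1, a transcription factor of the program, at 14.59 and 7.43 TPM (3817 and 2053 counts). Fbxo32, the other main ligase of the program, was at 41.76 and 38.94 TPM, and Foxo3 at 13.92 and 12.16 TPM. The ligases Fbxo30 (5.32 and 5.22 TPM) and Fbxo21 (4.93 and 5.32 TPM) were nearly level. By scaled counts Foxo1 was 1.95-fold, Trim63 1.66-fold, Foxo3 1.15-fold and Fbxo32 1.07-fold higher in replicate 1. Of all genes averaging 100 counts or more, 8.97% differed by over 1.5-fold either way. With 1 library on each side the differences of the atrophy genes have no replicate check.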
